A study of Mus musculus with 11 samples.

Results

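The 10 genes described here encode enzymes and partners that write, copy, erase or place repressive chromatin marks. They are Dnmt1, Dnmt3a and Uhrf1 of the DNA methylation machinery, the demethylation enzymes Tet1, Tet2 and Tet3, and Ezh1, Ezh2, Suz12 and Eed of Polycomb repressive complex 2 (PRC2). They were chosen as the rows with these symbols among the 14604 genes of the deposited expression table, and all 10 were listed in all 11 libraries. The libraries hold RNA of regulatory T cells (Tregs) sorted as live CD4+GITR+CD25+ cells from MC38 tumors or from spleens of tumor-bearing mice. MC38 is a mouse colon adenocarcinoma line that was implanted in the mice. Wild-type (WT) mice had the genotype CD177flox/flox and gave 3 spleen and 3 tumor libraries. Knockout (KO) mice had the genotype CD177flox/flox/FOXP3-CreYFP, in which Cre is driven by Foxp3, and gave 3 spleen and 2 tumor libraries. All mice therefore carried floxed Cd177 and a tumor, and KO mice differed from WT mice by Cre as well as by the deletion, which cannot be told apart. The study's methods take the spleens from the tumor-bearing mice themselves, so spleen and tumor libraries share mice, but which libraries share one is not stated and the tests below treat all libraries as independent. The age of the floxed mice and whether replicates came from separate mice are not stated either, so p-values measure only the spread between these libraries. Cd177 is not listed in the table, and the genotype labels were not checked from it.

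DNMT3A adds methyl groups to unmethylated CpG sites, whereas DNMT1 copies methylation onto new DNA strands behind the replication fork, to which UHRF1 recruits it. The TET dioxygenases oxidise methylcytosine and so open the way to its removal. In Tregs, demethylation of an intronic enhancer of Foxp3 is known to keep that gene stably expressed. EZH2 or its relative EZH1 methylates histone H3 (the H3K27me3 mark) in a complex that needs SUZ12 and EED, and EZH2 is known to maintain Treg identity after activation. EZH2, DNMT1 and UHRF1 are known as proliferation-linked genes, whereas EZH1 is also found in resting cells.

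Values are the authors' log2(n + 1), where n is the estimated count of a gene after their processing. Over all genes n summed to between 712832 and 844331 in spleen and to between 1103159 and 1304548 in tumor libraries. A single gene, Gm12896, made up between 31.4% and 42.4% of that sum in each library. The study's methods give 1 approximate read depth for all libraries, but the reads of each library and the scaling of n are unknown here, and whether n is per length is not stated, so levels were not compared between genes. Tumor libraries carried much RNA of other cells. Each of 18 myeloid markers passed as higher in tumor, their n summing to between 339 and 666 in spleen and to between 14215 and 20214 in tumor libraries. All 6 fibroblast markers with values were higher too, at a sum of 3 to 4 against 607 to 1387. Of 10 CD8 T cell and NK cell markers 6 were higher, 1 was lower and 3 did not pass, at a sum of 49 to 99 in spleen and 150 to 504 in tumor libraries, and such cells also express pan-T-cell and cell cycle genes. Erythroid and platelet markers went mostly the other way, with 7 of 8 lower in tumor and 1 higher. B cell markers did so too, with 5 of 7 lower, 1 higher and 1 that did not pass. Their n summed to 14 to 61 in spleen and to 7 to 21 in tumor libraries. Of 6 pan-T-cell genes (Cd3d, Cd3e, Cd3g, Lck, Lat and Cd2) 4 were lower and 2 did not pass. The part of the other cells in the differences below was not tested, and in such bulk samples fewer cells of a type and less RNA per cell cannot be told apart. Genes of the sort and Foxp3, the lineage factor of Tregs, had values in both tissues, but of these 6 genes 4 were lower in tumor as deposited. Ptprc (CD45) differed by -1.15, Foxp3 by -0.85, Cd3e by -0.62 and Cd4 by -0.42. Tnfrsf18 (GITR) was higher by 1.08, and Il2ra (CD25) did not pass. Foxp3 lay between 5.98 and 6.75 in spleen and between 4.72 and 6.12 in tumor libraries, and Il2ra between 7.02 and 7.46 and between 6.51 and 7.51.

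Uhrf1 was higher in tumor libraries, while Dnmt3a, Tet1, Tet3 and Ezh1 were lower, and for these 5 genes no tumor library overlapped a spleen library. Ezh2 was also lower and Dnmt1 slightly higher as deposited, with overlapping libraries. Tet2, Suz12 and Eed did not pass the threshold. In all, 7 of the 10 genes passed an adjusted p of 0.05 (limma with Benjamini-Hochberg adjustment over 13897 genes, 6 spleen against 5 tumor libraries), 2 higher and 5 lower. Of all genes tested 78.9% passed, 43.1% as higher and 35.9% as lower, so 7 of 10 is near the background and the count says nothing particular about these genes. Libraries of the tissues did not overlap for 63.5% of all genes, with tumor above for 35.2% and below for 28.4%, beside 1 and 4 of the 10 genes. The median difference of the 10 genes was -0.24 and that of all genes tested 0.08.

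**Figure D1:**
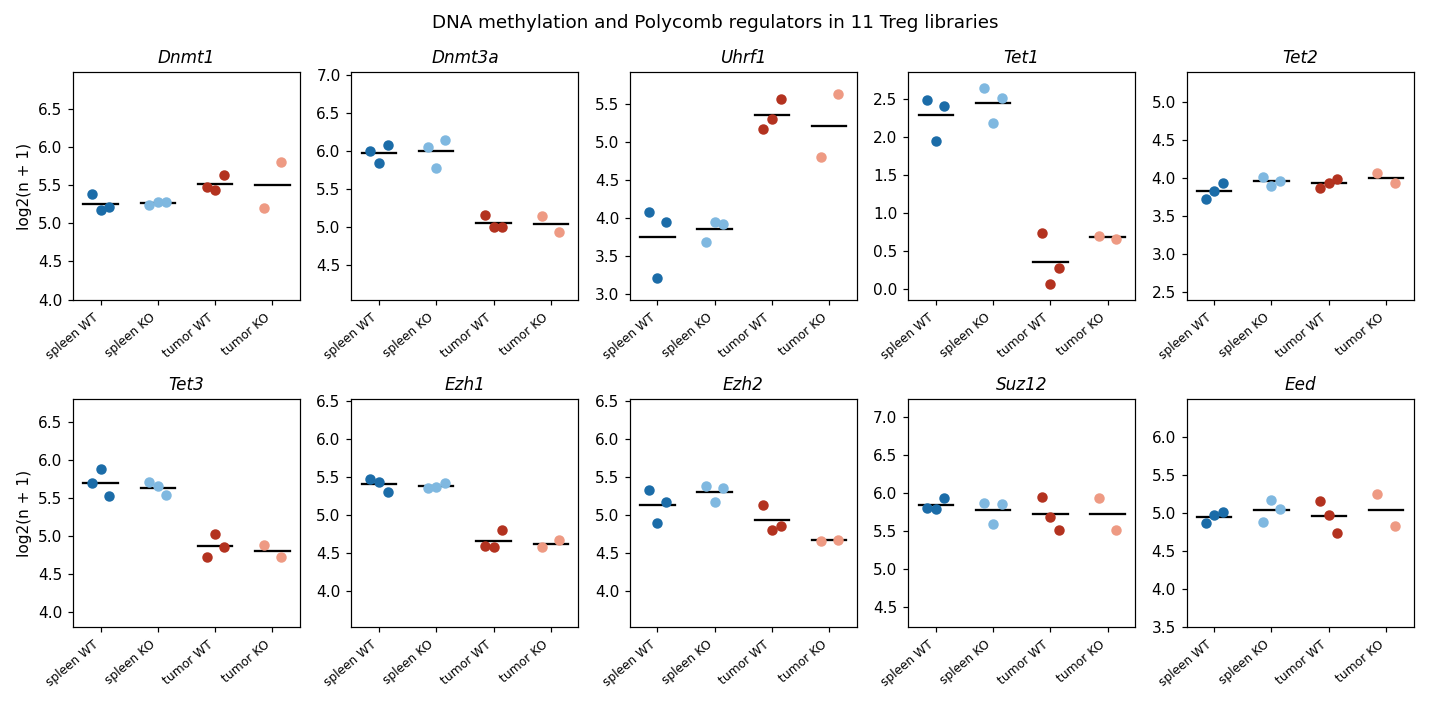
Level of each of the 10 genes in log2(n + 1) (y axis, 3 log2 units in every panel) in the 3 spleen WT, 3 spleen KO, 3 tumor WT and 2 tumor KO libraries. Points are libraries and lines are group means, and in Uhrf1, Dnmt3a, Tet1, Tet3 and Ezh1 no tumor point reaches the spleen points, on the scale as deposited.

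These directions depend in part on how libraries are scaled. The median difference of all genes moved from 0.08 as deposited to -0.16 after quantile normalization, -0.14 after median centring, -0.44 with equal library totals and 0.75 with each library centred on the 6 pan-T-cell genes. The equal totals include the large share of Gm12896, and totals without it were not tested. Uhrf1 stayed higher and Tet1 stayed lower past the threshold under all 4, but their size moved, Uhrf1 from 0.90 with equal totals to 2.16 and Tet1 from -2.22 with equal totals to -1.21, in each case when centred on the pan-T-cell genes. Dnmt3a, Tet3 and Ezh1 stayed lower under all 4, but not past the threshold when centred on the pan-T-cell genes, where their differences were -0.27, -0.16 and -0.082. With equal totals all 10 genes passed, 1 higher and 9 lower, as did 79.9% of all genes (23.6% higher and 56.3% lower). Ezh2 turned to 0.27 under that centring (adjusted p = 0.115, limma, with 1.99e-06 to 1 over its alternatives) and Dnmt1 turned to -0.37 with equal totals (adjusted p = 0.0059, limma, with 0.00033 to 1 over its alternatives). Relative to the median of all genes, centring cannot move a gene by construction, so quantile normalization and equal totals alone could show a change. With these and as deposited, Uhrf1 lay between 1.34 and 1.41 above that median, Dnmt1 between 0.076 and 0.16 above it, and Ezh2 at -0.56 to -0.47. On that relative scale Suz12 lay between -0.27 and -0.17, Eed between -0.17 and -0.083 and Tet2 between -0.079 and -0.00070.

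**Figure D2:**
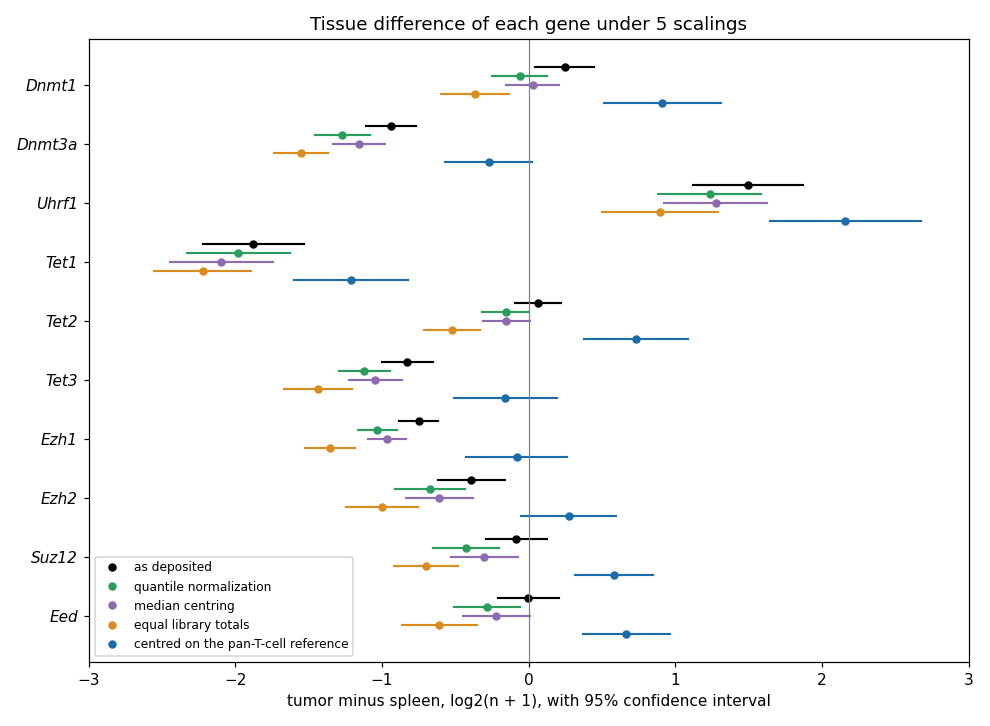
Tumor-minus-spleen difference in log2(n + 1) (x axis) with its 95% confidence interval from limma for each of the 10 genes, as deposited and under 4 other scalings. Uhrf1 lies to the right and Tet1 to the left of 0 under each scaling, while Dnmt1, Tet2, Ezh2, Suz12 and Eed change side.

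Of the methylation machinery, Uhrf1 rose most. Its log2(n + 1) was lowest at 3.21, with a median of 3.93 and a highest value of 4.07, in the 6 spleen libraries. In tumor it was 5.16, 5.30 and 5.56 in the WT and 4.79 and 5.62 in the KO libraries. Every tumor library lay above every spleen library, and the lowest was KO replicate 1. The difference was 1.49 (standard error 0.17, adjusted p = 3.92e-06, limma), a 2.82-fold rise on the n + 1 scale as deposited. Dnmt1, whose product UHRF1 brings to replicating DNA, moved far less. It lay between 5.18 and 5.39 (median 5.26) in spleen and was 5.48, 5.44 and 5.63 in WT and 5.20 and 5.80 in KO tumor libraries, so that the lowest tumor library was within the spleen range. The difference of 0.25 (standard error 0.093, adjusted p = 0.027, limma) was lost without spleen WT replicate 2 (0.23, adjusted p = 0.054), without tumor WT replicate 3 (0.22, adjusted p = 0.067) or without tumor KO replicate 2 (0.17, adjusted p = 0.072, limma in each). Dnmt3a, the de novo enzyme, moved the other way. It lay between 5.78 and 6.15 (median 6.03) in spleen and at 5.16, 4.996 and 4.999 in WT and 5.15 and 4.93 in KO tumor libraries. All tumor libraries were below all spleen libraries, by 0.94 on average (-0.94, standard error 0.078, adjusted p = 1.61e-07, limma), which is 1.92-fold on the n + 1 scale. An antisense gene, Dnmt3aos, overlaps exons of Dnmt3a, and without knowledge of strand their reads cannot be told apart.

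The balance of these genes shifted inside single libraries, a measure that any common scaling leaves nearly as it is. Dnmt1 minus Dnmt3a was between -0.87 and -0.50 in spleen and between 0.055 and 0.87 in tumor libraries (1.19 higher, with p = 0.0043 and 0.0069 after Benjamini-Hochberg adjustment over 8 such differences in an exact two-sided test of all permutations, where 0.0043 is the smallest p possible). Uhrf1 minus Dnmt1 was between -1.97 and -1.26 in spleen and between -0.41 and -0.070 in tumor libraries (1.25 higher, p = 0.0043, adjusted 0.0069, exact permutation). In both, no tumor library overlapped a spleen library. This was largely fixed in advance, as Dnmt1 differed by 0.25, Dnmt3a by -0.94 and Uhrf1 by 1.49 between the tissues. The same holds for the other differences of this kind below, which largely follow from the separate differences of their genes. Of single genes 63.5% already separated the tissues, and the share among other gene pairs was not tested.

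The 3 TET genes did not move together. Tet1 fell furthest, from between 1.95 and 2.64 (median 2.45) in spleen to 0.74, 0.06 and 0.27 in WT and 0.70 and 0.66 in KO tumor libraries. All 5 tumor values lay below 1, where n is below 1, and all 6 spleen values lay above. The difference was -1.88 (standard error 0.16, adjusted p = 1.98e-07, limma), and at such low values it understates the change in n. Whether it rests on few reads is not known, as the scaling of n is not stated. Tet3 lay between 5.52 and 5.88 (median 5.67) in spleen and at 4.72, 5.02 and 4.85 in WT and 4.88 and 4.72 in KO tumor libraries, again with no overlap. It fell by 0.83 (standard error 0.080, adjusted p = 6.87e-07, limma). Tet2 lay between 3.73 and 4.01 in spleen and between 3.87 and 4.06 in tumor libraries. Its difference of 0.065 did not pass (adjusted p = 0.42, limma), with a 95% confidence interval from -0.092 to 0.22. Tet3 minus Tet2 within a library fell from between 1.57 and 2.05 to between 0.78 and 1.08 (difference -0.89, exact two-sided permutation test, p = 0.0043, adjusted 0.0069).

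Both catalytic PRC2 genes were lower in tumor libraries as deposited, while the levels of the core partners overlapped. Ezh1 lay between 5.30 and 5.47 (median 5.39) in spleen and at 4.59, 4.57 and 4.81 in WT and 4.57 and 4.67 in KO tumor libraries. No library overlapped, and the difference was -0.75 (standard error 0.061, adjusted p = 1.50e-07, limma). Ezh2 lay between 4.90 and 5.38 (median 5.25) in spleen and at 5.13, 4.80 and 4.86 in WT and 4.66 and 4.67 in KO tumor libraries. Tumor WT replicate 1 was within the spleen range, and the other 4 tumor libraries were below it. The difference was -0.39 (standard error 0.11, adjusted p = 0.0041, limma). It stayed between -0.47 and -0.35 and past the threshold with each library left out in turn. A long non-coding gene on the other strand, Gm26625, overlaps Ezh2 exons.

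Suz12, the scaffold of PRC2, lay between 5.60 and 5.94 in spleen and at 5.96, 5.69 and 5.52 in WT and 5.94 and 5.52 in KO tumor libraries. Eed, the subunit that binds the finished mark, lay between 4.87 and 5.17 in spleen and at 5.16, 4.97 and 4.74 in WT and 5.25 and 4.83 in KO tumor libraries. Neither passed (Suz12 -0.083, adjusted p = 0.44; Eed -0.00098, adjusted p = 0.99, limma), with 95% confidence intervals from -0.29 to 0.12 and from -0.21 to 0.21. In both genes the highest tumor values were those of WT replicate 1 and KO replicate 1, and these were also the tumor libraries with the highest mean of the pan-T-cell genes (7.64 and 7.43, the others 6.85 to 7.07) and the lowest myeloid sums (14215 and 15589, the others 18244 to 20214). Dnmt3a and Tet1 were also highest among tumor libraries in these 2, and Uhrf1 was lowest in them. The part of other cells in this pattern was not tested.

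The balance within PRC2 shifted less than that of the methylation genes. Ezh2 minus Ezh1 rose from between -0.53 and 0.025 in spleen to between 0.0062 and 0.54 in tumor libraries (difference 0.36, exact two-sided permutation test, p = 0.0087, adjusted 0.0099). Ezh2 minus the mean of Suz12 and Eed fell from between -0.48 and 0.0038 to between -0.93 and -0.27 (difference -0.35, exact two-sided permutation test, p = 0.026, adjusted 0.026). The latter did not pass without tumor WT replicate 2 (-0.35) or without tumor KO replicate 1 (-0.25, adjusted p = 0.057 in each, exact permutation test).

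**Figure D3:**
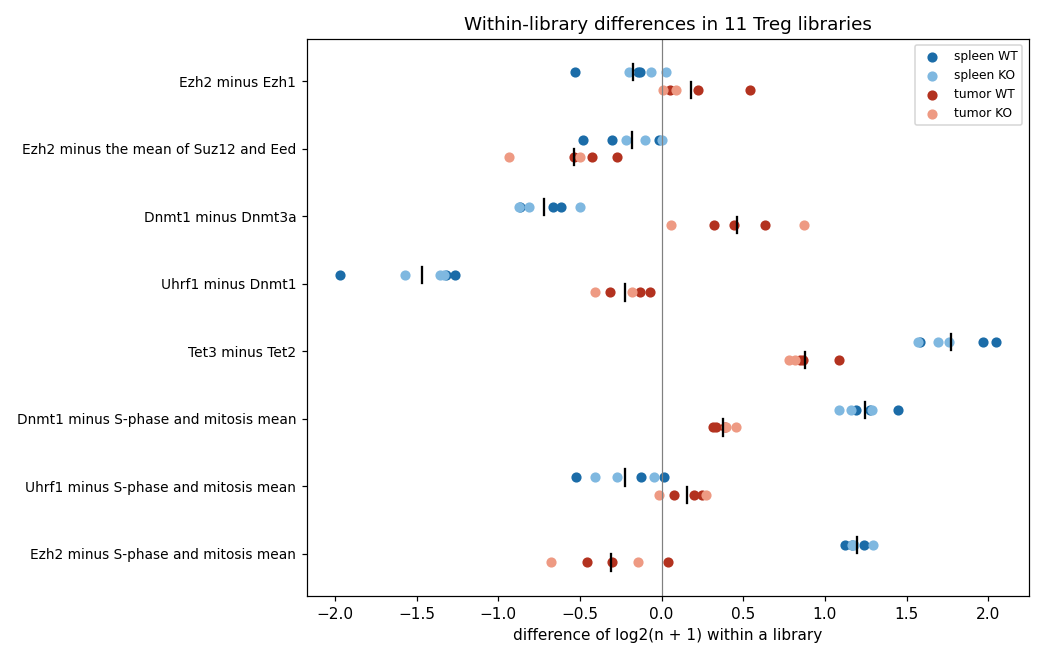
The 8 differences of log2(n + 1) within a library (x axis), with spleen libraries above and tumor libraries below in each row and short lines at the tissue means. The 3 rows with Dnmt1 minus Dnmt3a, Uhrf1 minus Dnmt1 and Tet3 minus Tet2 separate the tissues, as do Dnmt1 and Ezh2 against S-phase and mitosis genes.

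Uhrf1, Dnmt1 and Ezh2 are commonly transcribed with the genes of DNA replication, so they were set against 22 S-phase and mitosis genes in the same libraries. Of these, 20 were higher in tumor, none lower and 2 did not pass as deposited (with equal totals 14 higher and 4 lower). The median difference was 1.31. Mki67, a marker of cycling cells, rose by 1.55 and Cdk1, the kinase of mitotic entry, by 2.32, whereas Pcna, the replication clamp, was at 0.18 (adjusted p = 0.072, limma). The mean over the 22 genes lay between 3.73 and 4.20 in spleen and between 4.81 and 5.35 in tumor libraries. Uhrf1 moved with it, and Uhrf1 minus that mean was 0.38 higher in tumor, with overlapping libraries (exact two-sided permutation test, p = 0.0087, adjusted 0.0099). This gap depends on the makeup of the list, in which Mki67 and Cdk1 rose more than Uhrf1 (1.49) and Pcna moved less. Dnmt1 minus the mean dropped from between 1.09 and 1.45 to between 0.32 and 0.45, without overlap (-0.86, exact two-sided permutation test, p = 0.0043, adjusted 0.0069). Ezh2 parted from the mean most, from between 1.12 and 1.296 in spleen to between -0.68 and 0.042 in tumor, without overlap (-1.50, exact two-sided permutation test, p = 0.0043, adjusted 0.0069). The separation of Dnmt1 and Ezh2 from the mean was largely fixed in advance, as they differed by 0.25 and -0.39 beside the list median of 1.31. Their p-values here are therefore no separate evidence. Which cells carried the S-phase and mitosis RNA of the tumor libraries was not tested.

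Among the 5 tumor libraries, the mean of the S-phase and mitosis genes ordered as KO replicate 1 (4.81), WT replicate 1 (5.09), WT replicate 2 (5.10), WT replicate 3 (5.32) and KO replicate 2 (5.35). Uhrf1 followed the same order, and Dnmt1 followed it but for WT replicates 1 and 2, at 5.48 and 5.44. The 2 lowest libraries in this order were those with the highest pan-T-cell means and lowest myeloid sums, whose part was not tested. Ezh2 did not follow the order, being at 4.66 and 4.67 in the libraries at both ends.

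**Figure D4:**
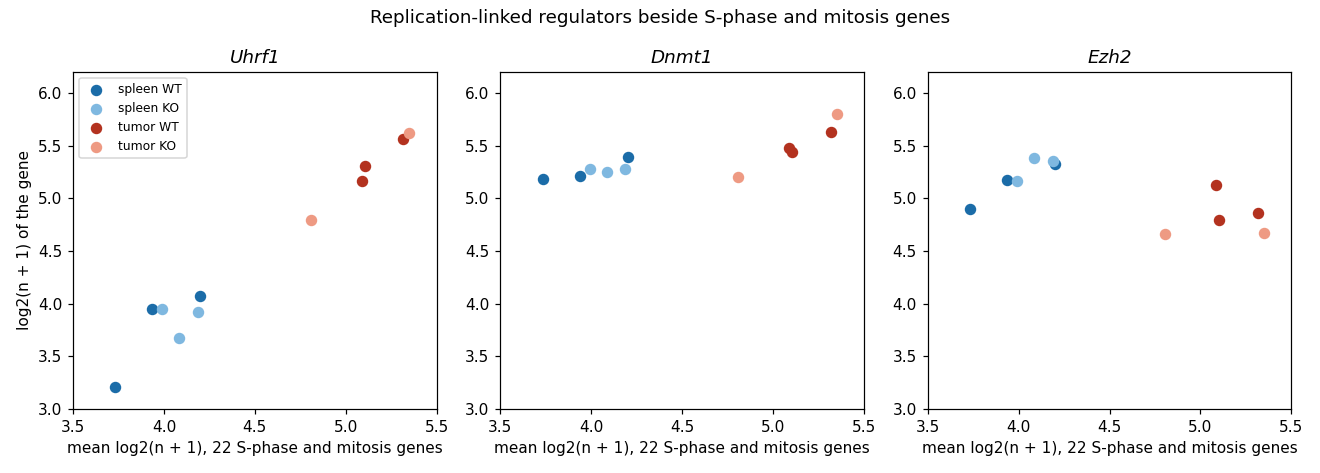
Level of Uhrf1, Dnmt1 and Ezh2 in log2(n + 1) (y axis) against the mean log2(n + 1) of 22 S-phase and mitosis genes (x axis) in 11 libraries, one point per library. Tumor libraries lie to the right of all spleen libraries, higher for Uhrf1 and lower for Ezh2 except WT replicate 1, on the scale as deposited.

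On GRCm38 with GENCODE M21 annotation, the genes of the methylation machinery are Dnmt1 (chr9:20907209-20959888, minus strand), Dnmt3a (chr12:3806007-3914443, plus strand) and Uhrf1 (chr17:56303321-56323486, plus strand). The TET genes are Tet1 (chr10:62804570-62908996, minus strand), Tet2 (chr3:133463679-133545139, minus strand) and Tet3 (chr6:83362373-83459084, minus strand). The PRC2 genes are Ezh1 (chr11:101191115-101226463, minus strand), Ezh2 (chr6:47530139-47595341, minus strand), Suz12 (chr11:79993106-80034123, plus strand) and Eed (chr7:89954654-89980983, minus strand).

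The promoters of these genes were searched for the letters TTTCCCGC, TTTGGCGC, TTTCGCGC and TTTGCCGC on both strands, which are forms of the site bound by E2F factors, regulators of S-phase transcription. RefSeq promoters (GRCm38.p6, from 250 bases before to 50 after a start) matched all 10 genes with 15 windows. A match was found in 4 of the 15, 1 each of Dnmt1, Uhrf1, Ezh2 and Suz12, beside 2.26% of 32851 promoters of that length. Each of the letter forms holds a CpG site, and 14 of the 15 windows had more CpG sites than the median promoter. That share is therefore not a matched background, and no excess can be read from it. Some windows of the same gene also overlap. The 4 windows are shown because these genes share the match while their differences in tumor ran from a rise to a fall, with the matches in capitals and the strand of the gene printed.

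Dnmt1 (chr9:20952574-20952873, minus strand): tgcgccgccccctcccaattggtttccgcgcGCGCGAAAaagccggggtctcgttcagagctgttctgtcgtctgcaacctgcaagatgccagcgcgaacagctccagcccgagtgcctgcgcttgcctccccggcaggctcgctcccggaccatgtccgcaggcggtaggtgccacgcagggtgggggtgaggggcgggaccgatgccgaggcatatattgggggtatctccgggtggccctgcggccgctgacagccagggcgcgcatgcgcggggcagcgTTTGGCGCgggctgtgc
Uhrf1 (chr17:56304063-56304362, plus strand): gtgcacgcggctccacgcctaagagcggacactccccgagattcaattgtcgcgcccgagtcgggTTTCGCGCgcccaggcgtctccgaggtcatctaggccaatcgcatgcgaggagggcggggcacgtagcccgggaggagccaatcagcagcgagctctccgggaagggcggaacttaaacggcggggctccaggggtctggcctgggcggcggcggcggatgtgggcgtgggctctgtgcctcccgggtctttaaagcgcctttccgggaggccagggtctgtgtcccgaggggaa
Ezh2 (chr6:47594981-47595280, minus strand): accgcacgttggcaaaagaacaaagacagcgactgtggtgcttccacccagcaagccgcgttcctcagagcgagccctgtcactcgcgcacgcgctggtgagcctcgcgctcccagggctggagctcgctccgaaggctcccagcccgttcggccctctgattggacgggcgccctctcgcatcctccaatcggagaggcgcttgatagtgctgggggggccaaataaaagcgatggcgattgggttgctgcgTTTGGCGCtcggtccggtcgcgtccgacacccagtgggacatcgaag
Suz12 (chr11:79992856-79993155, plus strand): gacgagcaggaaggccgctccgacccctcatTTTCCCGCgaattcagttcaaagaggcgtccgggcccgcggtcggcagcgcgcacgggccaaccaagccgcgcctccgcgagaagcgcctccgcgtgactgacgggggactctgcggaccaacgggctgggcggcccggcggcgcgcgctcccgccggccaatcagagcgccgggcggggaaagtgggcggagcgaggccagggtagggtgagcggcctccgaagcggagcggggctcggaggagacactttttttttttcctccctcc

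In Ezh2 the match begins 3 bases after the start, in Uhrf1 185 bases and in Suz12 219 bases before it, and the Dnmt1 window holds 1 match, GCGCGAAA on the reverse strand, 219 bases before and another 33 bases after. The CCAAT box (CCAAT), on either strand, was in 8 of the 15 windows beside 37.4% of all promoters, and TTTGAA or TTCGAA, forms of the CHR element of mitotic genes, in 3 of 15 beside 19.2%. The windows held between 2 and 57 CpG sites, 14 of them more than the median promoter (7). Such matches describe letters only, and no binding or methylation was measured.

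Between KO and WT mice none of the 10 genes passed the threshold in either tissue. In spleen the differences lay between -0.067 (Suz12) and 0.17 (Ezh2), with 95% confidence intervals within -0.46 to 0.66. Of all genes 0% passed in limma there, 281 genes at an unadjusted p under 0.05, none of them among the 10. In tumor the differences lay between -0.26 (Ezh2) and 0.32 (Tet1), with intervals within -0.76 to 0.85, where 0.0072% of all genes passed. Genotypes overlapped for all 10 genes in spleen, where 9.17% of all genes did not, and for 9 in tumor. The exception was Ezh2, whose 2 KO tumor libraries (4.66 and 4.67) were below the 3 WT ones (4.80 to 5.13), and 13.6% of all genes did not overlap there either. With 2 KO tumor libraries these intervals are wide.

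Within genotypes the tissue difference had the same direction for the genes that passed. For the 5 genes without overlap between tissues this was fixed in advance, as each genotype holds a part of the libraries compared above. In WT mice 5 of the 10 genes passed, 1 higher and 4 lower, beside 70.5% of all genes (39.2% higher and 31.3% lower). In KO mice 6 passed, 1 higher and 5 lower, beside 65.7% of all genes (36.2% higher and 29.5% lower). Uhrf1 was higher by 1.60 in WT and 1.36 in KO mice, Tet1 differed by -1.93 and -1.76, Dnmt3a by -0.93 and -0.96, Tet3 by -0.84 and -0.83, and Ezh1 by -0.74 and -0.76. Ezh2 differed by -0.20 in WT mice (standard error 0.13, adjusted p = 0.18, limma) and by -0.63 in KO mice (standard error 0.14, adjusted p = 0.0027, limma). The test of that contrast between genotypes gave -0.43 (unadjusted p = 0.048, adjusted p = 0.9997, limma), so the genotypes were not shown to differ. Dnmt1 passed in neither genotype alone, at 0.25 in WT and 0.24 in KO mice. Over the 4 groups, each of these 5 genes therefore had both means of a tissue above both of the other by construction. Their WT and KO libraries within a tissue overlapped.

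Around the 10 genes, 55 of 57 genes on 6 lists of their partners, readers and opponents were listed (Dnmt3l and Cxxc4 were not), and 37 passed, 19 higher and 18 lower (67.3%, against 78.9% of all genes). This split followed the scaling, with 4 higher and 37 lower at equal totals and 37 higher and 7 lower when centred on the pan-T-cell genes. Of 4 other DNA methylation factors all passed. Hells, a chromatin remodeller that aids methylation, rose by 0.59 and Uhrf2, the relative of Uhrf1, by 0.30, while Dnmt3b, the other de novo enzyme, was at -1.33 and Usp7, a deubiquitinase that acts on UHRF1 and DNMT1, at -0.69. Hells and Uhrf2 did not keep a rise past the threshold after quantile normalization or with equal totals. Of 8 genes on a list of readers of methylated CpG and their relatives, 1 rose, 3 fell and 4 did not pass as deposited. With quantile normalization 7 fell and none rose, and 6 rose and none fell when centred on the pan-T-cell genes. Mbd2 rose by 0.52, whereas Mbd4, which also excises mismatched bases, was at -0.78 and Mbd1 at -0.60.

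Of 9 genes of the steps around TET, 4 rose, 1 fell and 4 did not pass (with equal totals 2 rose and 4 fell). Gadd45b and Gadd45g, stress-induced genes linked to DNA repair and demethylation, rose by 2.61 and 2.24, and Ogt, a sugar transferase that binds TET proteins, was at -1.20. Tdg, the glycosylase that removes oxidised bases, was at 0.10 and did not pass (adjusted p = 0.24, limma). Of 12 enzymes of methyl donor and 2-oxoglutarate metabolism, on which methylation and TET activity depend, 4 rose, 3 fell and 5 did not pass (with equal totals 2 rose and 8 fell, and with pan-T-cell centring 9 rose and 1 fell). Idh1 and Idh2, which make 2-oxoglutarate, rose by 2.36 and 0.99, while D2hgdh, which clears its inhibitory relative D-2-hydroxyglutarate, was at -1.50 and Mat2b, a regulator of methyl donor synthesis, at -0.35.

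All 8 PRC2 cofactors passed as deposited, 5 higher and 3 lower (with equal totals 0 higher and 3 lower). Phf19, a Polycomb-like protein, rose by 0.57 and Rbbp4, a histone-binding subunit, by 0.56, while the Polycomb-like genes Phf1 and Mtf2 were at -1.28 and -0.98. Of 20 subunits of PRC1, the complex that ubiquitinates histone H2A, 6 rose, 5 fell and 9 did not pass (with equal totals 1 rose and 15 fell, and with pan-T-cell centring 14 rose and 2 fell). Pcgf5 rose by 0.98 and Yaf2 by 0.61, both parts of variant PRC1, while Cbx7, which reads the PRC2 mark, was at -1.86 and Phc3 at -1.16. Cbx7 and Phc3 were below every spleen library in every tumor library. Of 6 erasers of Polycomb marks 1 rose, 4 fell and 1 did not pass (with pan-T-cell centring 2 rose and 1 fell). The H3K27 demethylases parted, Kdm6b rising by 1.15 and Kdm6a at -0.70, both without overlap, and Asxl2 and Asxl1, partners of the H2A deubiquitinase Bap1, were at -1.05 and -0.99.

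**Figure D5:**
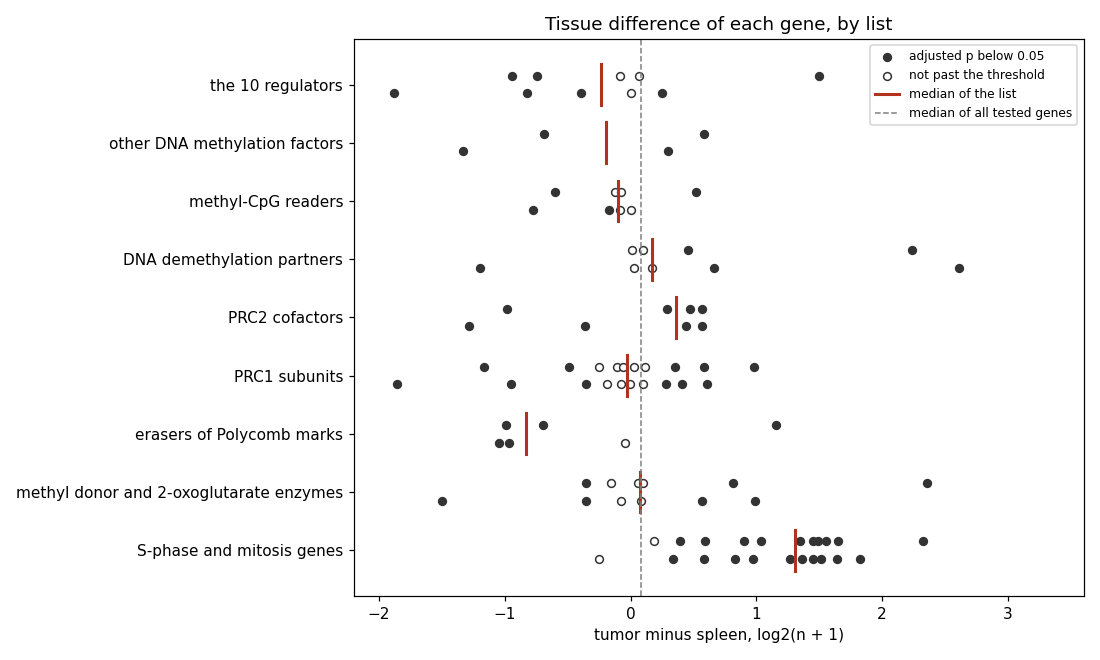
Tumor-minus-spleen difference in log2(n + 1) as deposited (x axis) of each gene by list. Filled points passed an adjusted p of 0.05 in limma, red lines are list medians and the dashed line is the median of all tested genes (0.08). The lists around the 10 regulators spread to both sides of it, and their split into higher and lower moves with the scaling, while S-phase and mitosis genes lie to the right with a median of 1.31.

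Of 6 genes known for Treg-specific demethylated regions, 2 were higher, 3 lower and 1 did not pass. Tnfrsf18 (GITR) rose by 1.08 and Ctla4, an inhibitory receptor, by 0.57, while Ikzf2 (Helios) was at -1.09 and Foxp3 at -0.85. GITR was also used in the sort. The methylation of these regions was not measured here.

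Finally, the genes closest in pattern to each of the 10 were found by the root mean square distance between log2 values over the 11 libraries, each gene centred on its own mean. This distance depends strongly on the size of the tissue difference, so close genes are largely those with a similar difference. Closest to Uhrf1 were Rrm2 (0.15), Gpsm2 (0.16) and Mki67 (0.16), of which Rrm2 and Mki67 are on the S-phase and mitosis list. Closest to Dnmt1 were Ccnq (0.070), Ctdsp2 (0.083) and E2f6 (0.087). For Dnmt3a they were Rapgef1, Ndst4 and Pikfyve (0.065 to 0.075), for Tet1 Slamf6, Gm17235 and Scai (0.16 to 0.18), for Tet2 Xpr1, Galk2 and Golga5 (0.049 to 0.064), and for Tet3 Arfrp1, Fbxo9 and Xpc (0.079 to 0.096). For Ezh1 they were Dhx33, Dock8 and Ralgapa1 (0.063 to 0.067), for Ezh2 Pcdhgb7, Polr3f and Smap1 (0.083 to 0.11), for Suz12 Jak3, Traf3 and Gm16286 (0.070 to 0.087), and for Eed Gpbp1, Srrm1 and Cry1 (0.086 to 0.095). No S-phase and mitosis gene was among the 3 closest to Dnmt1 or Ezh2. This was largely fixed in advance, as the median difference of that list was 1.31 and those of Dnmt1 and Ezh2 were 0.25 and -0.39. Nothing about a link to the cell cycle can be read from it.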

How the data were processed

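RNA of sorted Tregs was sequenced after ribosomal RNA depletion. The authors pseudoaligned single-end reads with kallisto to the mm10 mouse build, processed estimated counts with sleuth (0.30.0, per the submitters' processing notes), aggregated them by gene symbol and deposited log2(n + 1) values. Neither the kallisto version and annotation nor any rescaling of n is stated, and the methods give read depth only as 1 approximate figure for all libraries, so the depth of each is unknown and errors come from the spread between libraries alone.

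Samples were grouped by tissue and genotype from their titles. Genes with a mean of at least 0.5 were kept (13897, with 707 removed). limma 3.58.1 in R 4.3.3 (trend = TRUE) tested tumor against spleen over both genotypes, and a model with a mean per group gave the contrasts within and between genotypes. A gene passed at a Benjamini-Hochberg adjusted p below 0.05 over all genes tested. The fit was tested on simulated data. Differences within a library were compared by exact two-sided permutation tests over all 462 splits (scipy 1.17.1). The 10 genes and all lists were chosen with earlier results of these data known. Genes named are the 10, Cd177, Gm12896 for its share of n, genes of the sort, Mki67 and Pcna, up to 2 called rises and 2 called falls of each list, and the 3 nearest profiles. Kdm6a and Tdg were chosen after their values were seen. Alternatives changed scaling, pseudocount (0.1 or 5), filter, variance model, correction, covariate and block, and left out each library. Positions are on GRCm38, the assembly of mm10. Exons of 5 of the 10 genes (Dnmt3a, Tet2, Ezh2, Suz12 and Eed) overlap a gene on the other strand in GENCODE release M21, and strand information is not known here.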

Additional observations from a re-analysis of the deposited data

Results flagged for a closer look

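Tet3 minus Tet2 was 1.08 in tumor WT replicate 2, apart from 0.78 to 0.86 in the other 4 tumor libraries by a wide gap. It was the 1 value to stand apart among 36 sets of 5 or 6 libraries, where chance gives about 1.8.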

How the results depend on the processing

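Uhrf1 and Tet1 kept their direction and stayed past the threshold in each alternative that tested them. The number of the 10 genes called lay between 5 (Bonferroni) and 10 (equal totals), beside 5051 and 11105 of all 13897 genes tested. Genes called higher fell from 2 to 1 after quantile normalization, median centring, equal totals and Bonferroni, and were 5 when centred on the pan-T-cell genes. Those called lower became 9 with equal totals and 1 when centred on the pan-T-cell genes. Leaving out libraries gave 1 to 2 higher. All 13897 genes moved too, with 4623 called higher and 6359 lower after quantile normalization, and 4831 and 6219 after median centring. Equal totals gave 3286 and 7819, pan-T-cell centring 8797 and 1521, and Bonferroni 3108 and 1943. In WT mice 9 of the 10 genes passed with equal totals and 1 with Bonferroni, beside 10021 and 2449 of all genes. In KO mice 0 of the 10 passed with Bonferroni, beside 1857 of all genes. Of the genes on the 6 lists, quantile normalization gave 7 higher and 28 lower, median centring 28 lower, equal totals 4 and 37, pan-T-cell centring 37 and 7, and Bonferroni 18 in all with 5 higher. Of single lists, calls moved over 1.5 times among readers of methylated CpG (4 as deposited, then 7, 8 and 7 under quantile, median and equal-total scaling and 1 with Bonferroni), PRC2 cofactors (8, then 4 with quantile and 3 with equal totals or Bonferroni), demethylation partners (5, then 9 with pan-T-cell centring and 3 with Bonferroni), other methylation factors (4, then 2 with quantile or Bonferroni), PRC1 (11, then 4 with Bonferroni), erasers (5, then 3 with pan-T-cell centring), methyl donor enzymes (7, then 3), S-phase and mitosis genes (20, then 12, both with Bonferroni) and genes with Treg-specific demethylated regions (5, then 3 with pan-T-cell centring and 1 with Bonferroni). The genotype contrasts called 0 of the 10 in every alternative in limma.

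Tet2 reversed to -0.16 with quantile normalization, to -0.15 with median centring and to -0.52 with equal totals, and Dnmt1 to -0.062 with the first and -0.37 with the last. Centred on the pan-T-cell genes, Ezh2 reversed to 0.27, Suz12 to 0.58 and Eed to 0.67. Eed, near 0, also changed sign with a pseudocount of 5 (4.93e-05), genotype as a covariate (0.0073), the replicate block (0.011) and libraries left out (-0.066 to 0.062). Scaling moves all genes by construction, and which scaling is right was not tested. In WT libraries alone, where 3 against 3 cannot go below an exact p of 0.10, no within-library difference passed. The values were 0.54 for Ezh2 minus Ezh1, -0.15 for Ezh2 minus Suz12 and Eed, 1.18 for Dnmt1 minus Dnmt3a, 1.35 for Uhrf1 minus Dnmt1, -0.93 for Tet3 minus Tet2, and -0.96, 0.39 and -1.42 for Dnmt1, Uhrf1 and Ezh2 minus the S-phase and mitosis mean. Ezh2 minus Suz12 and Eed lay between -0.41 and -0.25 with libraries left out.

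Spleens and tumors came from the same mice, but the labels do not say that a number marks a mouse. Deviations of same-numbered spleen and tumor libraries from their group means had correlations across genes from -0.13 to 0.038. With 2 or 3 libraries per group, and tumor libraries that vary in other cells, this cannot tell paired from unpaired mice. The numbers were not taken to pair mice because the labels do not say so. With the replicate block, 7 of the 10 genes passed, 2 higher and 5 lower, and no call of the 10 changed. Of all 13897 genes 10512 passed there, 5753 higher and 4759 lower.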
